A study of Mus musculus with 8 samples.

Results

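Midbrain-hindbrain patterning factors are the transcription factors that lay out the midbrain, the isthmus and the cerebellum in the embryo and that some mature neurons of these regions go on expressing. The 10 genes described here were chosen by symbol (En1, En2, Pax2, Pax5, Pax8, Lmx1a, Lmx1b, Gbx2, Gata2 and Gata3), for this description. Of the 10, 9 were listed in at least 1 of the 4 deposited tables, among 11763 listed loci, and Gbx2 was listed in none. In mutant cerebellum En2 was lower and every other listed member was higher, in sedentary mice and, where a value was listed, in runners.

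The study sequenced polyadenylated RNA from the cerebellum of C57Bl/6 mice at postnatal day 40. Its 4 groups were control sedentary, control runner, Snf2h cKO-Nestin sedentary and Snf2h cKO-Nestin runner, where cKO stands for the conditional knockout of Snf2h, an ISWI-family ATPase that moves nucleosomes, encoded by Smarca5. The Nestin driver acts in neural progenitors, so non-neural cells are expected to keep the gene. Each group held 2 libraries that differ by a lane letter, each from a pool of 3 cerebella, and the files give 1 value per group with no spread between libraries. The series text calls them biological replicates, but whether both lanes of a group came from separate pools is not stated; if not, the deposited errors and q-values hold technical spread only. That value is in FPKM, fragments scaled by both transcript length and sequencing yield, so levels can be compared between genes but sequencing depth is unknown.

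The targeted gene was lower in the mutant groups. Smarca5 stood at 12.6 FPKM in sedentary controls and 13.0 in control runners, against 4.94 in sedentary mutants and 5.38 in mutant runners, with log2 fold changes of -1.35 and -1.27 for genotype in the authors' deposited tables. The labels call all mice male, and sex-linked genes did not match that label. Xist, transcribed from the inactive X chromosome, stood at 34.8, 57.6, 18.1 and 25.8 FPKM in sedentary controls, control runners, sedentary mutants and mutant runners. The Y-linked Eif2s3y stood at 7.43, 0.0334, 10.4 and 5.56 FPKM in the same order, so the control runner group was near 0. A second Y-linked gene, Ddx3y, had mutant values only, 13.1 FPKM in sedentary and 5.90 in runners. All pairs of groups thus differed in sex-linked levels, with control runners far below the rest in Eif2s3y, and sex and the named condition cannot be told apart.

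In the embryo, Fgf8 and Wnt1 signals from the isthmus, at the border of midbrain and hindbrain, maintain the engrailed genes En1 and En2 and the paired-box genes Pax2, Pax5 and Pax8, while Gbx2 marks the hindbrain side of that border. The LIM homeobox genes Lmx1a and Lmx1b act in the roof plate and in midbrain dopamine neurons, and Lmx1b also in serotonin neurons of the hindbrain. Gata2 and Gata3 are zinc finger factors that select the GABAergic fate in midbrain and hindbrain neurons and take part in serotonin neuron development. Some of these genes keep roles in the cerebellum itself: Pax2 marks young inhibitory interneurons, and En2 is expressed in granule neurons.

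The promoters of the 4 genes that rose at least 2-fold in sedentary mutants are shown because these genes moved together. Each window runs from 250 bases before to 50 after the annotated start, from RefSeq (GRCm38.p6), written along the gene's strand at chr2:33641049-33641348 (Lmx1b, minus), chr2:24475550-24475849 (Pax8, minus), chr4:44710645-44710944 (Pax5, minus) and chr1:167689308-167689607 (Lmx1a, plus). Capitals mark matches of CCAAT or GGGCGG on either strand.
Lmx1b: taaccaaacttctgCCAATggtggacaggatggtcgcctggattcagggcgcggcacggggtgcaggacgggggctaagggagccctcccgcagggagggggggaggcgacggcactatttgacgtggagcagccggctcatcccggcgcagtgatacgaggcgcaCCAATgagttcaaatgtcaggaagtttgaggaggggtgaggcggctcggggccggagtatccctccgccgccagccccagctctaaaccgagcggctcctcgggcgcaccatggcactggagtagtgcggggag
Pax8: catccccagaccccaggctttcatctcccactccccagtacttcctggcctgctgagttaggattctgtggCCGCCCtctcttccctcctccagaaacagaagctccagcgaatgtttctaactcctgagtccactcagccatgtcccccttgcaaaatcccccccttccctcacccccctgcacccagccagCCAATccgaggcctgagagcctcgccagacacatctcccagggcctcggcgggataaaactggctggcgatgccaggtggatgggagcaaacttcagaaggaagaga
Pax5: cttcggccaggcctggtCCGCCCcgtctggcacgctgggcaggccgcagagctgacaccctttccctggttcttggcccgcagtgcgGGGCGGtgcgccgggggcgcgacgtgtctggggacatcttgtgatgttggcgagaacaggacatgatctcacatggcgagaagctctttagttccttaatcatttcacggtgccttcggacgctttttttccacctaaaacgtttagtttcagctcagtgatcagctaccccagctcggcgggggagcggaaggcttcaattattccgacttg
Lmx1a: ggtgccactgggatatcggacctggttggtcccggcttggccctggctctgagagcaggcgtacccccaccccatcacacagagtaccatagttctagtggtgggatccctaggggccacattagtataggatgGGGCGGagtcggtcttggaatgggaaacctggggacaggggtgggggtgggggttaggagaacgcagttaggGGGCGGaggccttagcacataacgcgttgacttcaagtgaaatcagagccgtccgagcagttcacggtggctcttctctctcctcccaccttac

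No marked motif was in all 4 windows. Lmx1b held 2 CCAAT matches, Pax8 held 1 CCAAT and 1 GGGCGG, and Pax5 and Lmx1a held 2 GGGCGG each. Among all 32851 promoter windows 37.4% held CCAAT and 35.7% held GGGCGG. Neither the homeodomain core TAATTA (5.29% of all windows) nor the GATA motif GATAAG (7.44%) occurred in any of the 12 windows available for 9 members, and the E-box CANNTG, found in 72.3% of all windows, occurred once in each of the 4 windows shown. No match says only that these letters are not in the window. The 12 windows were rich in G and C, at 54.7 to 73.7% against a median of 52.7% over all windows.

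En2 was by far the most abundant member in every group, as the plot of levels shows. In control sedentary mice the order from high to low was En2, Pax2, En1, Gata2, Gata3, Lmx1a, Pax5, Lmx1b and Pax8, and 5 of these 9 lay under 1 FPKM. In cKO sedentary mice only Pax8 lay under 1 FPKM, and Pax5 and Lmx1b had moved ahead of Lmx1a. Without a spread between libraries, neighbours in these orders cannot be separated. Over the 7 members other than En2 with a value in all groups, the summed level was 5.04 FPKM in sedentary controls and 5.13 in control runners, against 10.2 in sedentary mutants and 12.4 in mutant runners. The share of En2 in the total of these 8 genes was 90.2% and 92.0% in the control groups and 66.0% and 67.5% in the mutant groups.

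**Figure D1:**
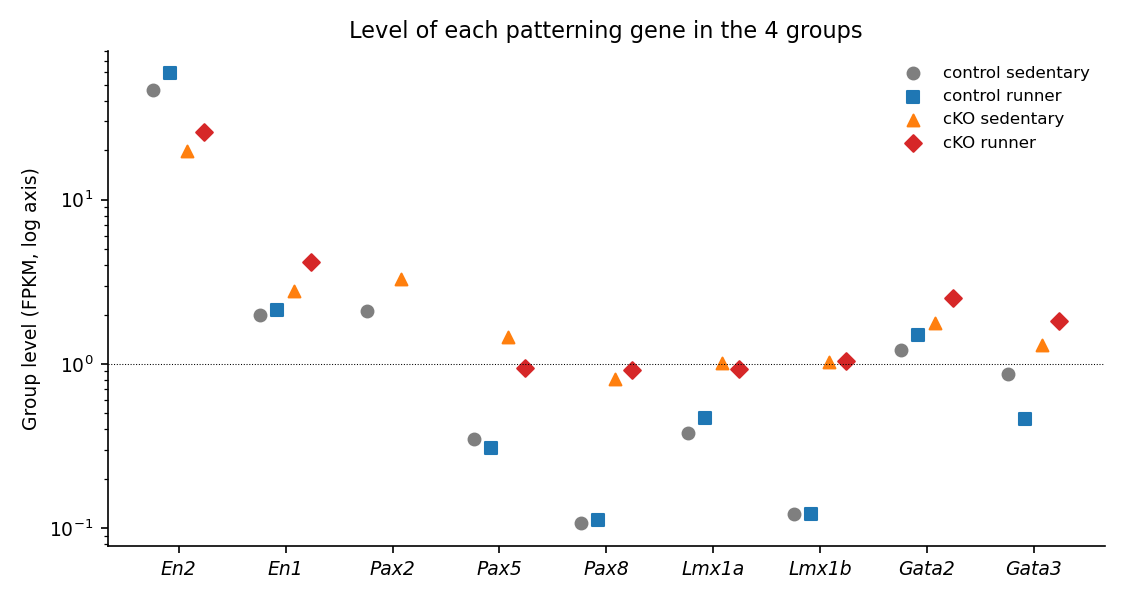
Group level of each listed member in FPKM on a log axis, 1 point per group as the authors deposited it, with a dotted line at 1 FPKM. Both mutant points lie below both control points for En2 and above them for the other members with 4 values; Pax2 has sedentary values only.

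The engrailed paralogues moved in opposite directions in the mutant. En2 (XLOC_016735; chromosome 5, 28165694 to 28172166, plus strand, mm10) stood at 46.5 FPKM in sedentary controls and 58.9 in control runners, against 19.7 in sedentary mutants and 25.7 in mutant runners. Both mutant groups lay below both control groups, by a log2 fold change of -1.24 (SE 0.0727) in sedentary mice and -1.20 (SE 0.0838) in runners in the authors' deposited tables, each with q = 0.000167. These standard errors are the fold change divided by Cuffdiff's statistic, here and below.

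En1 (XLOC_000355; chromosome 1, 120602418 to 120607992, plus strand), which in the embryo is needed for the midbrain and cerebellum to form, stood at 2.00 FPKM in sedentary controls and 2.14 in control runners, against 2.77 in sedentary mutants and 4.19 in mutant runners. It was higher in mutants of either activity. The authors' deposited tables gave log2 0.47 (SE 0.201, q = 0.0119) in sedentary mice and 0.97 (SE 0.190, q = 0.000167) in runners. Centred on genes of like length, the sedentary value was 0.75. The ratio of En2 to En1 level was 23.3 and 27.5 in the sedentary and runner controls and 7.13 and 6.13 in the mutants.

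All 3 paired-box genes were higher in the sedentary mutant, by 1.57-fold for Pax2, 4.22-fold for Pax5 and 7.53-fold for Pax8. Pax2 (XLOC_011282; chromosome 19, 44756045 to 44837871, plus strand) had sedentary values only, 2.11 FPKM in control and 3.30 in cKO, a log2 fold change of 0.65 (SE 0.245, q = 0.00118) in the authors' deposited table. Pax5 (XLOC_015939; chromosome 4, 44524757 to 44710487, minus strand), a regulator of B cells as well as of the midbrain, stood at 0.348 FPKM in sedentary controls and 0.308 in control runners, against 1.47 in sedentary mutants and 0.944 in mutant runners. The mutant groups lay above the controls, and the authors' deposited tables gave log2 2.08 (SE 0.502) in sedentary mice and 1.62 (SE 0.480) in runners, each with q = 0.000167.

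Pax8 (XLOC_012851; chromosome 2, 24420560 to 24475599, minus strand), also a thyroid and kidney factor, was the lowest member in every group. It stood at 0.107 FPKM in sedentary controls and 0.113 in control runners, against 0.808 in sedentary mutants and 0.913 in mutant runners. The levels of the controls were close to each other, as were those of the mutants. Log2 fold changes in the authors' deposited tables were 2.91 (SE 0.896, q = 0.000167) in sedentary mice and 3.02 (SE 0.894, q = 0.000324) in runners, and both rest on control values near 0.1 FPKM. The ratio of Pax5 to Pax8 level was 3.24 in sedentary controls and 1.81 in sedentary mutants, a description with no test.

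Both LIM homeobox genes were higher in the mutant. Lmx1b (XLOC_012968; chromosome 2, 33560965 to 33640511, minus strand) stood at 0.122 FPKM in sedentary controls and 0.123 in control runners, against 1.03 in sedentary mutants and 1.04 in mutant runners. Running left these values apart by less than 1 part in 100, while genotype separated them by 8.46-fold in sedentary mice. In the authors' deposited tables its log2 fold change was 3.08 (SE 0.799) in sedentary mice and 3.08 (SE 0.795) in runners, each with q = 0.000167. These ratios rest on control levels near 0.1 FPKM, and with a pseudocount of 1 FPKM the sedentary value was 0.86.

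Lmx1a (XLOC_000524; chromosome 1, 167689237 to 167848741, plus strand), which in the cerebellum is also found in unipolar brush cells, stood at 0.379 FPKM in sedentary controls and 0.472 in control runners, against 1.01 in sedentary mutants and 0.937 in mutant runners. Its mutant levels lay above its control levels, by log2 1.42 (SE 0.371, q = 0.000167) in sedentary mice and 0.99 (SE 0.345, q = 0.000475) in runners in the authors' deposited tables. Lmx1a thus stood 3.11 times as high as Lmx1b in control sedentary and 0.981 times as high in cKO sedentary.

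Gata2 and Gata3 were both higher in the mutant. Gata2 (XLOC_018482; chromosome 6, 88193891 to 88207032, plus strand), which also acts in blood and endothelial cells, stood at 1.22 FPKM in sedentary controls and 1.51 in control runners, against 1.79 in sedentary mutants and 2.53 in mutant runners. The authors' deposited tables gave log2 0.56 (SE 0.246, q = 0.00435) in sedentary mice and 0.75 (SE 0.224, q = 0.000167) in runners.

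Gata3 (chromosome 2, 9857078 to 9890034, minus strand) was counted in a locus, XLOC_012813, that joins it to 9230102O04Rik, a gene that overlaps it on the same strand, so the value is that of both. The locus stood at 0.873 FPKM in sedentary controls and 0.465 in control runners, against 1.31 in sedentary mutants and 1.83 in mutant runners. Control runners were the lowest group and cKO runners the highest. The authors' deposited tables gave log2 0.58 (SE 0.291, q = 0.0167) for genotype in sedentary mice and 1.98 (SE 0.376, q = 0.000167) in runners. On the opposite strand the annotation shows 4930412O13Rik and the antisense Gm13256 overlapping Gata3. In other members it shows antisense transcripts for Pax2 and Pax5. Use of strand in the authors' counting is a setting not given in the sources used here.

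Counted at a deposited q below 0.05, 8 members were higher and 1 lower in sedentary mutants, where 82.7% of loci were called, and 7 were higher and 1 lower in mutant runners, where 68.4% were. The tables hold nearly only called genes, so the background was taken over all 11763 listed loci: 38.4% were called higher and 44.2% lower in sedentary mutants, and 32.2% higher and 36.2% lower in mutant runners. By at least 2-fold, 4 members rose (Lmx1b, Pax8, Pax5 and Lmx1a) and En2 fell in sedentary mice, where the background was 11.3% higher and 4.89% lower. In runners the 2-fold increases were those of Lmx1b, Pax8, Gata3 and Pax5, with En2 again lower, against 7.63% and 2.76%. The median log2 fold change of listed members was 0.65 in sedentary mice and 1.30 in runners in the authors' deposited tables, against -0.18 and -0.11 for all listed genes. The members were chosen with earlier results known, so these counts describe them and are no test of the group.

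**Figure D2:**
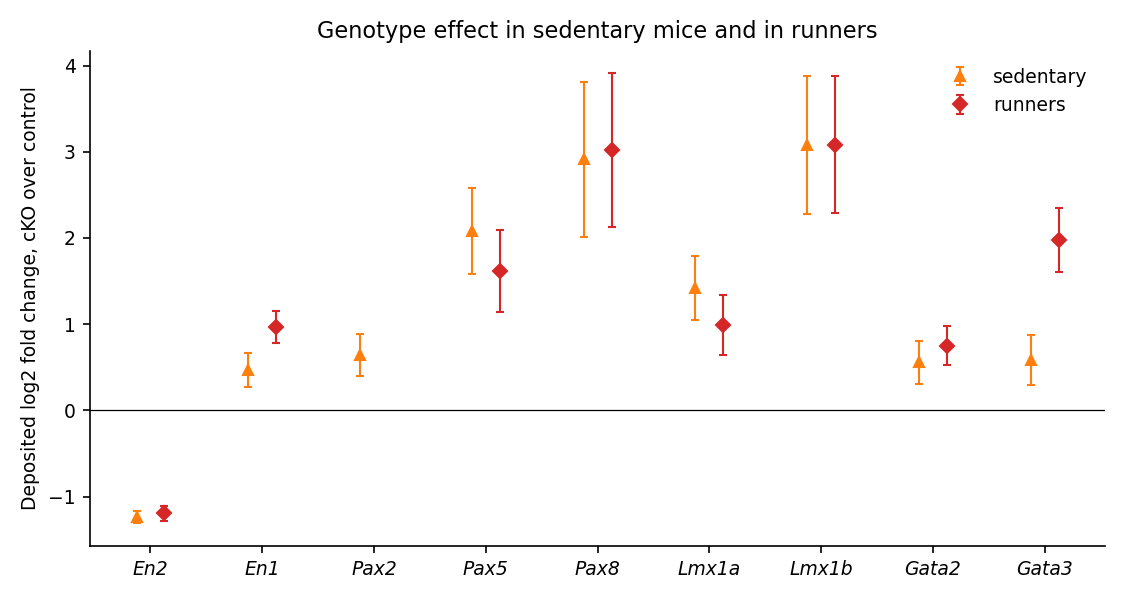
Deposited log2 fold change of cKO over control for each listed member in sedentary mice (triangles) and runners (diamonds), with bars of 1 standard error from the deposited statistic. En2 lies near -1.2 in both, the other members lie above 0, and Gata3 lies at 0.58 in sedentary mice and 1.98 in runners.

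Fewer members were called for running than for genotype. In the mutant, 4 members were higher in runners and 1 lower, against a background of 31.6% of loci called, 17.7% higher and 13.8% lower. None changed by 2-fold, which 0.638% of loci did upward and 0.561% downward. En1 rose by log2 0.60 (SE 0.179, q = 0.000167), Gata2 by 0.50 (SE 0.218, q = 0.00411), Gata3 by 0.48 (SE 0.257, q = 0.0262) and En2 by 0.38 (SE 0.106, q = 0.000167) in the authors' deposited table. Pax5 fell, with log2 -0.64 (SE 0.299, q = 0.0123) in the authors' deposited table. Pax8, Lmx1a and Lmx1b were not listed, with runner levels 1.13, 0.927 and 1.01 times the sedentary ones.

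In controls 1 member was higher and 1 lower in runners, against 40.6% of loci called, 22.1% higher and 18.4% lower. None changed by 2-fold, as 0.723% of loci did upward and 0.459% downward. En2 rose by log2 0.34 (SE 0.0340, q = 0.000167) and Gata3 had log2 -0.91 (SE 0.400, q = 0.00313) in the authors' deposited table. The other members were not listed. Among those with both levels, the control runner to sedentary ratio ranged from 0.885 for Pax5 to 1.25 for Lmx1a. Cuffdiff's table for controls lists no gene above q = 0.0343 and that for mutants none above 0.0264, so an unlisted member may lie between these values and 0.05.

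The genotype effect on Gata3 was larger in runners than in sedentary mice. The difference, runners minus sedentary, was 1.39 log2 (SE 0.475, 95% interval 0.46 to 2.33), with an adjusted p of 0.0145 from a two-sided z test adjusted by the Benjamini-Hochberg method over 6751 genes, of which 28.0% were called. That test rests on Cuffdiff's own errors. The same difference is that between the running effects, log2 0.48 in the mutant and -0.91 in the control. It thus rests in part on the control runner group, whose Eif2s3y and Xist levels are given above, and in part on the mutant groups. Some monoamine neuron genes were also lower in control runners. Of 8 listed serotonin neuron genes, 2 were called lower there and 6 were not listed: Tph2, the serotonin synthesis enzyme, stood at 4.93 FPKM in sedentary controls and 1.05 in control runners, while Gch1 stood at 0.722 and 0.755. Of 6 listed noradrenaline neuron genes, 1 was lower (Dbh, the noradrenaline synthesis enzyme, at 0.991 and 0.355 FPKM) and 1 higher (Tfap2b, at 9.65 and 11.9 FPKM). The part of such neurons, or of sex, in the Gata3 values was not tested.

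For the other 7 members with values in all groups the difference between genotype effects did not pass. En1 came nearest, at 0.50 log2 (95% interval -0.05 to 1.04, adjusted p of 0.197 by the same z test). The interval was narrow for En2, from -0.18 to 0.26, so its lower level in the mutant differed by little between sedentary mice and runners. It was wide for Lmx1b, from -2.21 to 2.21, and Pax8, from -2.38 to 2.59, although their fold changes in the authors' deposited tables were nearly equal.

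**Figure D3:**
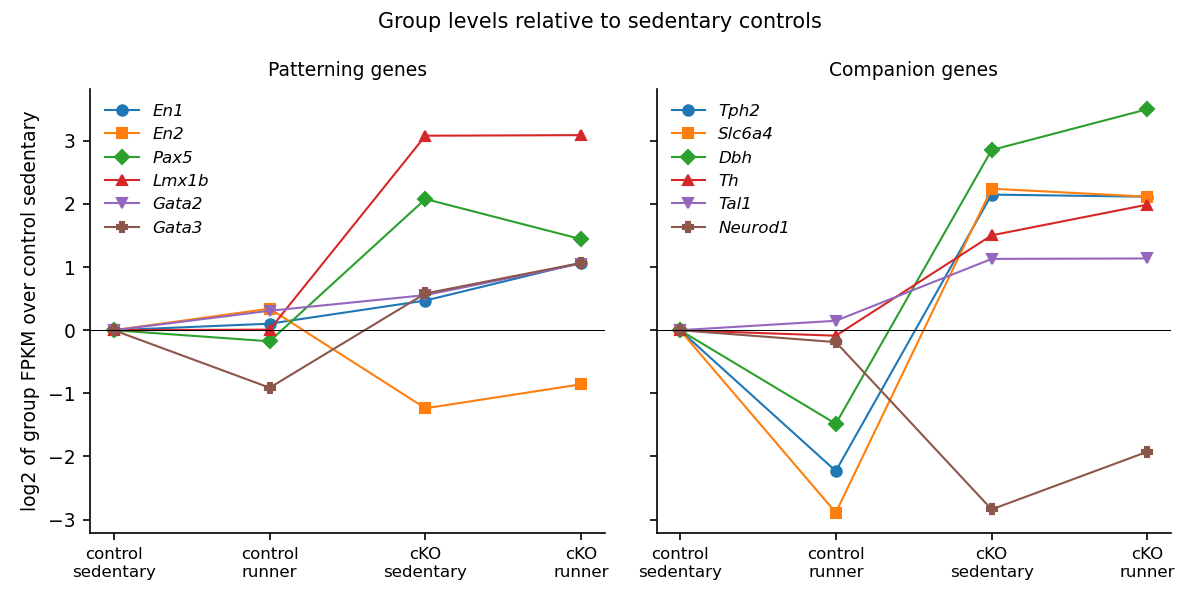
Log2 of each group's FPKM over that of control sedentary for 6 patterning genes (left) and 6 companion genes (right), 1 point per group. Gata3 is lowest in control runners, as are Tph2, Slc6a4 and Dbh, which were chosen for the plot after their values were seen and differ in this from other genes of their lists such as Gch1 and Tfap2b.

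Genes that work with the members, or that mark the cells that express them, were taken from 13 lists of 173 genes, also fixed with earlier results known. Over all 11763 loci, 38.4% were called higher and 44.2% lower in sedentary mutants, and 32.2% and 36.2% in mutant runners. The tables hold nearly only called genes, so the counts of each list describe it and are no test. Among isthmic signals and partners, 16 of 21 were listed, and Fgf8, Wnt1 and Fgf17 were listed in no table. Of the 16, 8 were higher and 5 lower in sedentary mutants, with a median log2 of 0.32 over the listed ones. In the authors' deposited table Hes3, a repressor of neuronal differentiation at the isthmus, had log2 1.37, Fgf18 1.22 and Pbx3, a homeodomain cofactor, 0.80. Cnpy1, known in zebrafish as a regulator of Fgf signalling, fell by 1.21 in that table and stood at 150.3, 141.3, 65.1 and 71.6 FPKM in sedentary controls, control runners, sedentary mutants and mutant runners.

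Partners of the GATA factors split by gene. Of 11 listed GATA cofactors and GABA fate factors, 7 were higher and 2 lower in sedentary mutants. Tal1, which acts with Gata2 in GABAergic fate choice, stood at 0.807 FPKM in sedentary controls and 0.895 in control runners, against 1.77 in sedentary mutants and 1.78 in mutant runners. The GATA cofactor Zfpm1 had log2 1.01 for genotype in sedentary mice in the authors' deposited table, while its relative Zfpm2 had -0.97.

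Genes of the monoamine neurons that use Lmx1b, Lmx1a, En1 and Gata factors were higher in the mutant along with them. All 8 listed serotonin neuron genes were higher in sedentary mutants and 7 of 8 in mutant runners, and 7 of 10 listed dopamine neuron genes were higher and 2 lower in sedentary mutants. Summed over loci with a value in every group, serotonin neuron genes stood at 23.7 FPKM in sedentary controls and 17.8 in control runners, against 61.5 in sedentary mutants and 58.0 in mutant runners. The noradrenaline neuron list stood at 14.1, 15.5, 27.3 and 28.0 FPKM and the dopamine neuron list at 131, 102, 169 and 189 FPKM in the same order. Most of the noradrenaline sum in controls came from Tfap2b, at 9.65, 11.9, 10.6 and 7.10 FPKM in the 4 groups, while Dbh stood at 0.991, 0.355, 7.16 and 11.2 FPKM. Most of the dopamine sum in controls came from the locus of Aldh1a1, a retinal dehydrogenase gene, joined there to E030003E18Rik, and without it the sums were 29.1, 30.2, 71.8 and 88.4 FPKM. Slc6a4, the serotonin transporter, stood at 2.60, 0.352, 12.3 and 11.3 FPKM, and Th, the first enzyme of dopamine synthesis, at 3.41, 3.21, 9.66 and 13.5 FPKM. Fev, the serotonin neuron factor, had sedentary values only, 0.0979 FPKM in control and 0.519 in cKO. Slc6a3, of the dopamine list, stood at 0.035, 0.0508, 1.78 and 8.03 FPKM in the same 4 groups, so its fold changes rest on very low control values. The 2 dopamine list loci lower in sedentary mutants were Nr4a2, at log2 -0.68, and that of Aldh1a1, at -0.07, in the authors' deposited table. Foxa1, Foxa2 and Pitx3, which mark midbrain dopamine neurons, were listed in no table, and no listed marker was at 0. The part of such neurons in the levels of the members was not tested. In these bulk samples a change in the number of cells of a type and a change in RNA per cell cannot be told apart.

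Regional factors were mixed. Of 24 fixed midbrain and hindbrain regional factors 8 were listed, none of them a Hox gene, with 5 higher and 3 lower in sedentary mutants. Tfap2d, a factor of the dorsal midbrain, stood at 4.17 FPKM in control sedentary, 1.39 in cKO sedentary and 3.67 in cKO runner. Barhl2, a homeobox factor, had log2 -1.53 and Irx5 0.76 for genotype in sedentary mice in the authors' deposited table.

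**Figure D4:**
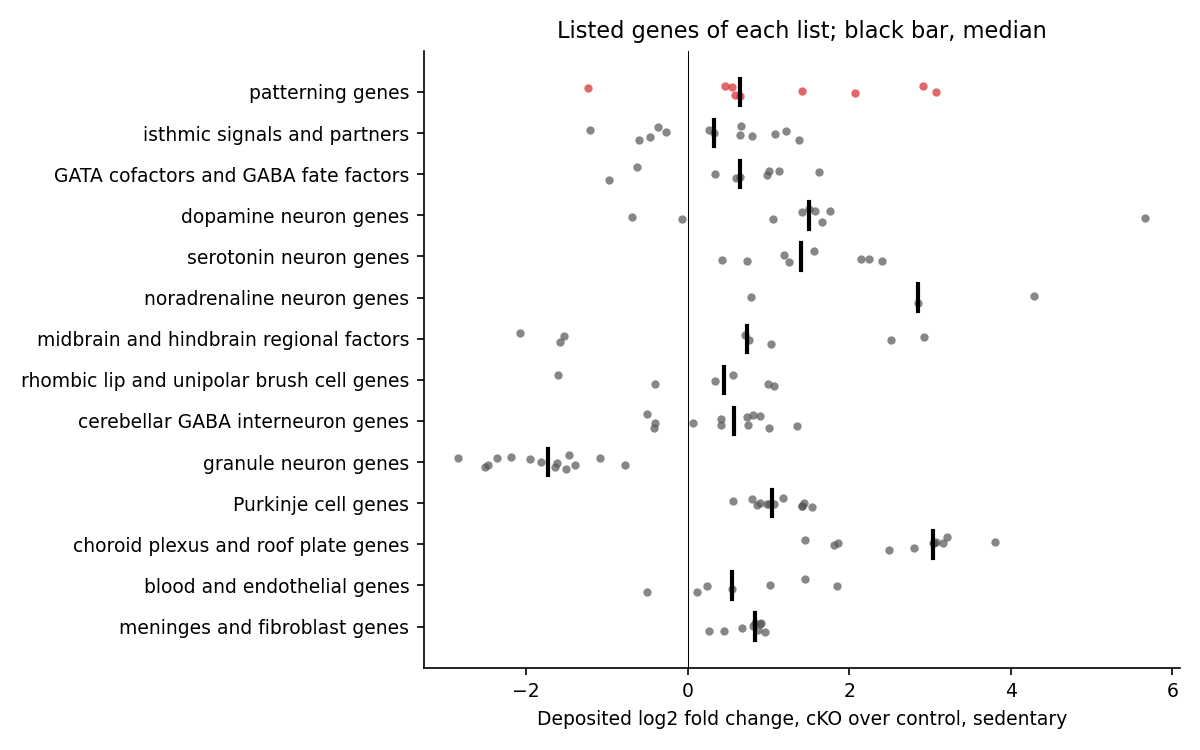
Deposited log2 fold change of cKO over control in sedentary mice for each listed gene, 1 point per locus, with a black bar at the median of each list and the patterning genes in the top row. The granule neuron list lies below 0 with a median of -1.73. The serotonin neuron, noradrenaline neuron, Purkinje cell, choroid plexus and meninges lists lie above 0, with the highest median, 3.04, in the choroid plexus list.

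Cerebellar cell markers were present in all groups and moved with genotype too. Granule neuron genes summed to 2105 FPKM in sedentary controls and 2160 in control runners, against 517 in sedentary mutants and 797 in mutant runners, and 14 of 15 loci were called lower in sedentary mutants and none higher. En2 at -1.24 lay nearer 0 than their median of -1.73 in sedentary mice and close to it in runners, at -1.20 against -1.23, in the authors' deposited tables. Neurod1, a granule neuron factor, had log2 -2.84 in sedentary mice in the authors' deposited table. The share of En2's lower level that goes with fewer granule neuron transcripts was not tested.

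Purkinje cell genes summed to 1781, 1760, 3588 and 2546 FPKM in sedentary controls, control runners, sedentary mutants and mutant runners, with 12 of 13 loci called higher in sedentary mutants. Inhibitory interneuron genes, which bear on Pax2, summed to 935, 881, 1232 and 963 FPKM, with 9 loci higher and 3 lower in sedentary mutants. Gad2, a GABA synthesis enzyme, had log2 1.35 in the authors' deposited table. The 3 lower were Npy at -0.51, Kit at -0.42 and Grm2 at -0.41. In runners, where 7 loci were higher and 3 lower for genotype, Kit had -1.03, Grm2 -0.50 and Npy 0.78. Among rhombic lip and unipolar brush cell genes, which bear on Lmx1a, 4 of 9 were higher and 2 lower in sedentary mutants. Barhl1, a rhombic lip lineage factor, had -1.61 in that comparison in the authors' deposited table.

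Choroid plexus and roof plate genes, which also bear on Lmx1a, summed to 88.1 FPKM in sedentary controls and 544 in control runners, against 681 in sedentary mutants and 649 in mutant runners. All 11 listed loci were called higher in sedentary mutants, and 10 were called higher in control runners than in sedentary controls. Most of each sum came from 1 gene, Ttr, at 77.7, 518, 640 and 610 FPKM in sedentary controls, control runners, sedentary mutants and mutant runners. For running in controls Ttr had log2 2.74 in the authors' deposited table, while the control runner level of Lmx1a was 1.25 times that of sedentary controls. Blood and endothelial genes, which bear on Gata2, summed to 116, 122, 153 and 150 FPKM over the 5 loci with a value in every group. Of 10 listed loci, 5 were higher and 1 lower in sedentary mutants. Most of each sum came from Slc2a1, at 53.7, 75.2, 58.3 and 94.3 FPKM, and a haemoglobin locus that joins Hba-a1 and Hba-a2. That locus differed in pattern, at 32.5, 24.5, 65.9 and 24.7 FPKM in the same order. Gata1 and Klf1 were listed in no table. Meninges and fibroblast genes summed to 41.9, 36.9, 62.6 and 56.4 FPKM, with all 9 listed genes higher in sedentary mutants. The part of any of these cells in the levels of the members was not tested.

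En2 and Cnpy1 are neighbours, and this pair was singled out after its values were seen. Cnpy1 lies on chromosome 5 (28200819 to 28245806, minus strand), 28.7 kb beyond the end of En2, and in runners it had log2 -0.98 for genotype in the authors' deposited table, beside -1.20 for En2. Insig1, the protein-coding gene 87.0 kb on the other side, had -0.17 in sedentary mice. Of 18 protein-coding genes that flank the listed members, 8 were in the sedentary genotype table and 7 were called. That table holds nearly only called genes, and 82.7% of all loci were called in it, 38.4% higher and 44.2% lower. Of the 7, 6 had the direction of their member, by as little as log2 0.07. Cnpy1 was the 1 that did so by at least 2-fold. Whether neighbours share a direction was not tested.

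The nearest 4-group patterns were found for 7 members by the distance between centred log2(FPKM + 0.1) values among 6394 loci. Lurap1 (distance 0.03) and Sv2b (0.06), a synaptic vesicle protein gene, were nearest to En2. Pou3f2, a neural POU factor, and Egln3 were nearest to Lmx1a (0.03 and 0.05), and C4b, a complement gene, and Usp18, an interferon-induced gene, to Lmx1b (0.12 and 0.22). Gata3 was nearest to Sncg and Chrna3 (0.10 and 0.11), the latter a nicotinic receptor subunit gene that stood at 1.71, 0.907, 2.62 and 3.28 FPKM in sedentary controls, control runners, sedentary mutants and mutant runners. Pak6 and Syt5 were nearest to En1 (0.07 and 0.09), Igfbp4 and Lrfn2 to Gata2 (0.07 and 0.09), and B230323A14Rik and Ttll8 to Pax5 (0.09 and 0.11). With only 4 points per gene these are descriptions, and with a pseudocount of 1 only 2 of the 14 pairs were found again (Lurap1 and Lrfn2).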

How the data were processed

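Polyadenylated cerebellar RNA gave 8 paired-end libraries (2 x 100 bases), per the labels. Build mm10 and the tools Cufflinks 2.1.1, Cuffdiff, TopHat and TopHat2 2.0.8b are named, without roles, in the submitters' processing notes. The 4 deposited tables hold FPKM per group, with the libraries combined by the authors. All 13151 group values found in more than 1 table were identical. The log2 fold change, the statistic (used as a score), and the p-value and q-value are the authors', per the file headers, and fold changes were turned so that cKO was set over control and runners over sedentary mice. Sequencing depth is unknown, and counting intervals were therefore not computed. Loci were taken by symbol, splitting joined names; a gene missing from a table was never read as unchanged. The series text calls the libraries biological replicates, told apart by lane letter.

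Genes were called at q below 0.05. The smallest p (5e-05) has q = 0.000167. The ratio of p to q puts 50.2% of all tests adjusted together at or below the last called p. The z test of the difference between genotype effects used standard errors from the deposited statistic. Among genes above the smallest p that statistic was a median 0.72 of the normal quantile of p, so these errors are wide. Positions and lengths came from GENCODE M21 (GRCm38, the assembly of mm10) and promoters from RefSeq (GRCm38.p6). The members, lists and tests were chosen with earlier results of these data known. Named genes were all members, Smarca5, up to 4 genes per list and the 2 nearest patterns per member reaching 1 FPKM. The list genes were those with the smallest q in the sedentary genotype comparison, among single-symbol loci reaching 1 FPKM. Outside this rule, Fev, Tfap2b, Aldh1a1, Slc6a3, Nr4a2, Ttr, Hba-a1, Npy, Kit, Grm2, Insig1, Asb18, Agap1 and the sex-linked genes were named after their values were seen. Of the genes this rule names, 1 is not reported here, and some others are given only in the counts of their lists. Alternatives changed the q threshold, low-value and fold filters, joined loci, pseudocount, scaling and length centring. Python 3.11.15, pandas 2.3.3 and SciPy 1.17.1 were used.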

Additional observations from a re-analysis of the deposited data

Results flagged for a closer look

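The genotype effect on the Gata3 locus differed between runners and sedentary mice, by 1.39 log2 (95% interval 0.46 to 2.33, an adjusted p of 0.0145 in the z test over 6751 genes). It stood at 0.465 FPKM in control runner and 0.873 in control sedentary, and at 1.83 and 1.31 in the mutants. The Y-linked Eif2s3y stood at 0.0334 FPKM in control runner and 7.43 in control sedentary, so sex and running cannot be told apart in that pair.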

How the results depend on the processing

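The genotype counts changed by more than 1.5 times under few settings. At q below 0.001, 5 members (4 higher and 1 lower) were called in sedentary mice, in place of 9. With at least 1 FPKM in 1 group, 5 (4 higher and 1 lower) were called in runners, in place of 8, since Pax8, Lmx1a and Pax5 stay under that level there. For running in the mutant, the 5 calls became 3 at q below 0.01, 2 at q below 0.001 and 2 at 1.5-fold or more. For running in controls, the 2 calls became 1 at q below 0.001, 1 with at least 1 FPKM in 1 group, 1 at 1.5-fold or more and 1 with single-symbol loci, which removes Gata3. These settings remove genes by construction. With standard errors from the deposited p, 70 of 1079 genes had different genotype effects, in place of 1890 of 6751. That setting used only genes above the smallest p in both genotype comparisons. By construction it leaves out every member listed in both. The counts are thus of different sets of genes, and what else changed the share called was not tested. From the running tables the z test gave Gata3 the same difference and standard error by construction, so it is no added support. Its adjusted p there was 0.00566 over 2078 genes, of which 1391 were called, a different set of genes. With errors from the deposited p of the running tables, a setting added after the data were seen, 183 of 333 genes were called. Gata3 then had an adjusted p of 0.00011 for the same difference. Of 96 alternatives for 24 member fold changes, none turned the direction; 16 moved by more than 1 standard error, mostly with a pseudocount of 1, which brought Lmx1b from 3.08 to 0.86 in sedentary mice. Counting 2-fold changes at q below 0.001 or with 1 FPKM was added after the data were seen. The 1 FPKM filter changed the count from 5 to 4 in sedentary mice and from 5 to 3 in runners, and the other counts stayed the same. No paired analysis was possible because the tables hold 1 value per group, and for the same reason no library could be left out. Depth is unknown, so values near 0.1 FPKM carry an unknown counting error.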

Other observations

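Asb18, the protein-coding gene on 1 side of Gbx2 (19.0 kb away on chromosome 1), was listed although Gbx2 was not. It stood at 0.220 FPKM in sedentary controls and 0.202 in control runners, against 0.814 in sedentary mutants and 0.538 in mutant runners, and the authors' deposited tables gave log2 1.89 and 1.41 for genotype in sedentary mice and runners, each with q = 0.000167. Agap1, on the other side at 30.3 kb, had 0.27 in sedentary mice and -0.23 in runners in the authors' deposited tables. These genes were picked after their values were seen.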
